A study of Mus musculus with 10 samples.

Results

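Hypoxia and glycolysis genes were examined in tumors sampled before treatment with a poly(I:C) hydrogel. The set holds 34 genes, chosen by name as HIF-1 alpha, its prolyl hydroxylases, the enzymes of glycolysis and common targets of hypoxia, and each was found in the table by its gene symbol. All 34 were measured, out of 35958 features in the whole table, and all 34 were among the 15767 features that passed the filter on low values.

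The tumors were grown under the skin of BALB/c mice from WEHI-164 cells, a mouse fibrosarcoma line, in wild-type, female and untreated animals per the labels. Most of each tumor was removed by surgery, the removed piece gave the RNA, and the hydrogel was then placed on what was left. The 5 responders (tumors 5, 9, 10, 11 and 12) later regressed completely, and the 5 non-responders (tumors 1, 2, 3, 6 and 7) grew without delay. No tumor had received poly(I:C) when it was sampled, so the comparison asks whether the genes differed before treatment. Each sample is 1 piece of 1 mouse from 1 cell line, and no sample of normoxic tissue, no oxygen measurement and no protein were analysed here.

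Cells that lack oxygen stop hydroxylating the alpha subunit of the hypoxia-inducible factor (HIF), which is then no longer handed to the VHL ubiquitin ligase and accumulates. HIF pairs with ARNT, binds a short DNA element and raises the transcription of glucose transporters, glycolytic enzymes, vascular growth factors and its own prolyl hydroxylases. HIF-1 alpha itself is controlled mostly through protein stability, so that its mRNA is a poor gauge of its activity, and many tumor cells run glycolysis at a high rate even where oxygen is present.

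The DNA element has the core ACGTG or GCGTG, and both were searched on either strand of the RefSeq promoter windows on GRCm38.p6, which reach from 250 bases before to 50 after each annotated start. A CACGTG palindrome was counted as ACGTG on each strand. Windows were found for 32 of the 34 genes, all but Bnip3l and Ndrg1. At least 1 core was present in 30 of the 32, and in 46.7% of the 27025 genes with a window. ACGTG was present in 23 of the 32 against 21.8% of all genes, and GCGTG in 21 of the 32 against 35.2%. By window rather than by gene, 37 of 46 held a core against 43.8% of 32851. A match of these letters is not a bound site.

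The stretches shown belong to genes on which the results turn, and Vegfa is added as a start without a core, although a second Vegfa window, not shown, held 1 of each core. They run 5′ to 3′ on the strand of the gene over the last 150 bases before the RefSeq start, without bases that GENCODE annotates as exon, and capitals mark the cores. They lie at chrX:106186950-106187099 (plus strand) for Pgk1, chr7:46845654-46845803 (plus) for Ldha, chr7:138909520-138909656 (minus) for Bnip3 and chr6:82774455-82774604 (minus) for Hk2. The others lie at chr12:73907717-73907866 (plus) for Hif1a, chr2:11502102-11502240 (minus) for the second of the Pfkfb3 windows, chr11:120948917-120949052 (plus) for Slc16a3 and chr17:46032378-46032527 (minus) for the first Vegfa window.
Pgk1: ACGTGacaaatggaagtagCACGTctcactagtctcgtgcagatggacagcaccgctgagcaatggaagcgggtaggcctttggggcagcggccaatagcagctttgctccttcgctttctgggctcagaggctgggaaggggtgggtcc
Ldha: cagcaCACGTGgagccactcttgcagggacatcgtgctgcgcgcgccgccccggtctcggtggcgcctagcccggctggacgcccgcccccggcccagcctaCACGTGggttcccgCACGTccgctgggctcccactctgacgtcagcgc
Bnip3: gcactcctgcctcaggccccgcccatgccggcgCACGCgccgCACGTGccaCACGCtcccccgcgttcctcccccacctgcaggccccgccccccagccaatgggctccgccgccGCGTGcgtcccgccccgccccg
Hk2: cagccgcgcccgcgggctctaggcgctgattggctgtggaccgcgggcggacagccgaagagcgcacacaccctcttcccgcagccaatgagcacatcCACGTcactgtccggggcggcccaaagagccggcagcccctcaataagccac
Hif1a: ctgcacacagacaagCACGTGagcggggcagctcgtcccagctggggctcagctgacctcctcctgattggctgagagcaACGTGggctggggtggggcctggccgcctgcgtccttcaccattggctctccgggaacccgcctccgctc
Pfkfb3: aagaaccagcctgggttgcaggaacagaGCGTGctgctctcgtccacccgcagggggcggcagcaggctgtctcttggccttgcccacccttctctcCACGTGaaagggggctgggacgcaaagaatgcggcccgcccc
Slc16a3: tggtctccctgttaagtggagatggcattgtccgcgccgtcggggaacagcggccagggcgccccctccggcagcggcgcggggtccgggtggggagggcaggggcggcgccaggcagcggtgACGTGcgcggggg
Vegfa: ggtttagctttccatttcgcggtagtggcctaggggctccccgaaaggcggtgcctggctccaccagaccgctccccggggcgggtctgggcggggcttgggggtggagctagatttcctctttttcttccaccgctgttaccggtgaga
The Ldha stretch held CACGTG palindromes that began 145 and 48 bases before the start, and Hif1a, Bnip3 and Pfkfb3 each held 1 palindrome. The Pgk1 cores began 150 and 131 bases before the start, on opposite strands.

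The genes were expressed in every tumor, and the 9 highest levels per length were those of glycolytic enzymes. The unit is CPM, the counts of a gene scaled to a common library size with the trimmed mean of M-values (TMM), from libraries of 16002949 (responder 9) to 31160790 (responder 11) estimated counts. Divided by the length of the longest coding transcript, mean levels over the 10 tumors were highest for Pkm, which makes pyruvate, at 1170 CPM per kilobase. Aldoa, the main aldolase, followed at 734 CPM per kilobase and Ldha, which turns pyruvate into lactate, at 669 CPM per kilobase. Eno1 at 612, Pgk1 at 518 and Gapdh at 427 CPM per kilobase came next. These levels leave out near-identical copies, which carried 53.4% of the sum of Eno1 and its copies and 71.5% of that of Gapdh. With the copies added at the same lengths, Eno1 and Gapdh would stand above Pkm, so the order holds only without the copies. Outside the enzymes, Ndrg1 reached 150 and Vegfa 108 CPM per kilobase, whereas Pfkfb4 stood at 4.16 and Aldoc at 1.87 CPM per kilobase. Neighbors such as Tpi1 (397) and Pgam1 (394 CPM per kilobase) changed places from tumor to tumor, with Pgam1 at 416 and Tpi1 at 372 in non-responder 6.

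Between responders and non-responders, differences in these genes were small and none passed the test. In the quasi-likelihood test of edgeR, adjusted after Benjamini and Hochberg, 0 of 34 were called at an adjusted p under 0.05, as were 0.0% of all 15767 features, and the lowest adjusted p was 0.624. At an unadjusted p under 0.05, 2 of 34 (5.88%) were higher in responders, Pfkfb3 and Hif1a, against a background of 3.86%, and 0 were lower against 3.84%. DESeq2 and limma voom also gave 2 higher, 0 lower and 0 called among the 34. Over all features, 1215 had an unadjusted p under 0.05 in edgeR, DESeq2 called 1 after adjustment and limma voom 0. By direction alone, 25 genes had a log2 fold change above 0 and 9 below, with a median of 0.05 and a range of -0.24 to 0.30, beside a median of -0.004 over all features, of which 48.6% were above 0. The groups overlapped for every one of the 34 genes, whereas the responders lay wholly above in 0.336% and wholly below in 0.59% of all features. The mice are separate animals, so the p-values set the difference between the groups against the spread between animals. In RNA from whole tumor pieces, fewer cells of a type and less RNA per cell cannot be told apart.

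**Figure D1:**
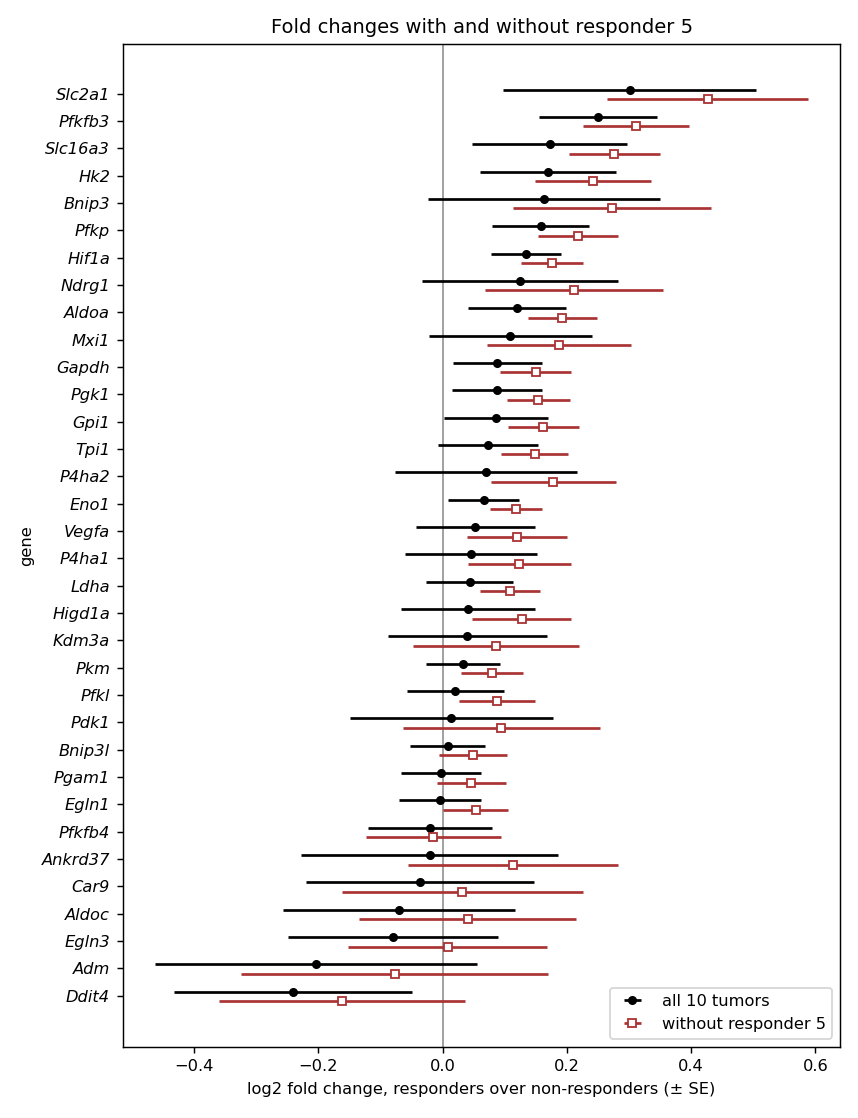
Log2 fold change of each of the 34 genes, responders over non-responders, with its standard error (horizontal axis), for all 10 tumors (black circles) and without responder 5 (red squares). With all 10 tumors 25 genes lie above 0, and without responder 5 there are 31, among them Slc2a1, which moves from 0.30 to 0.43.

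Among the oxygen sensors, Hif1a, the regulated subunit of HIF-1, was at 241, 293, 272, 277 and 281 CPM in responders 5, 9, 10, 11 and 12, the order kept for every gene. In non-responders 1, 2, 3, 6 and 7, again the order kept throughout, Hif1a was at 254, 250.5, 267, 238 and 233 CPM. Responders 9, 10, 11 and 12 were above every non-responder, and responder 5 lay among the non-responders. Mean levels of 273 ± 19.2 and 249 ± 13.4 CPM (SD over 5 tumors each) gave a log2 fold change of 0.13 ± 0.06 (SE) with an adjusted p of 0.624 in edgeR.

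Egln1, the main prolyl hydroxylase, had means of 161 ± 17.9 CPM (responders) and 162 ± 3.56 CPM (non-responders), with the SD over 5 tumors, and ran from 135 CPM in responder 5 to 181 CPM in responder 12. Egln3, the prolyl hydroxylase that hypoxia induces most in many cell types, was at 105, 164, 123, 139 and 166 CPM in the responders and at 109, 189.8, 162, 137 and 139 CPM in the non-responders. The highest value was in non-responder 2 and the lowest in responder 5, and each group covered most of the range of the other. Its log2 fold change was -0.08 ± 0.17 (SE) with an adjusted p of 0.932 in edgeR.

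Slc2a1, the glucose transporter GLUT1, had the largest fold change of the set. It was at 159, 316, 221, 279 and 270.3 CPM in the responders and at 168, 248, 248, 181 and 165 CPM in the non-responders. Responders 9, 11 and 12 were above every non-responder, responder 5 was below all of them, and responder 10 lay between. The log2 fold change of 0.30 ± 0.20 (SE) had an adjusted p of 0.732 in edgeR. Slc16a3, the lactate exporter MCT4, was at 76.8, 122, 102, 128 and 117 CPM in the responders and at 98.0, 103, 103, 97.6 and 83.2 CPM in the non-responders. Its order was alike, with responder 5 lowest of the 10 and responders 9, 11 and 12 highest, and its log2 fold change was 0.17 ± 0.12 (SE, adjusted p of 0.749 in edgeR).

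Car9, a carbonic anhydrase that handles acid at the cell surface and is widely used as a hypoxia marker, did not follow that order. It was at 49.1, 68.5, 46.4, 50.2 and 88.3 CPM in the responders and at 49.5, 64.9, 66.2, 64.0 and 65.2 CPM in the non-responders. Responder 12 was highest, but responders 5, 10 and 11 stood with non-responder 1 at the low end, and the log2 fold change was -0.04 ± 0.18 (SE, adjusted p of 0.977 in edgeR).

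**Figure D2:**
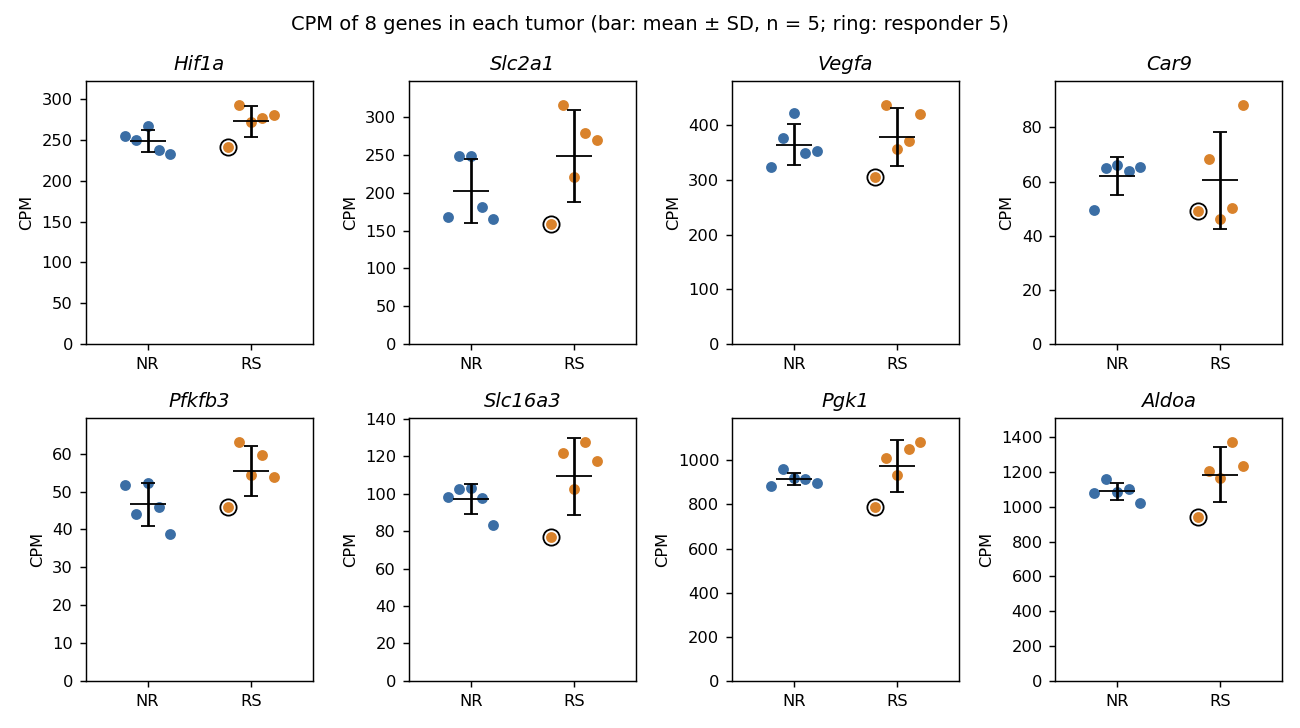
CPM of 8 genes in each tumor, non-responders (NR, blue) and responders (RS, orange), with the mean and SD of 5 tumors in black and a ring around responder 5. The groups overlap in every panel, and the ringed tumor is the lowest of the 10 for Slc2a1, Vegfa, Slc16a3, Pgk1 and Aldoa.

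In the upper stretch of glycolysis, from glucose to triose phosphate, 6 of 7 genes had a log2 fold change above 0 and 0 passed p under 0.05. Hk2, the inducible hexokinase, was at 105, 154, 119, 146 and 136 CPM in the responders and at 108, 124, 138, 116 and 102 CPM in the non-responders. Responders 9 and 11 were above every non-responder, and responder 5 was near the bottom, next to non-responders 7 and 1. The log2 fold change of Hk2 was 0.17 ± 0.11 (SE, adjusted p of 0.721 in edgeR). Pfkp, a phosphofructokinase that commits sugar to glycolysis, was at 135, 185, 152, 168 and 170.2 CPM in the responders and at 148, 145, 159, 130.4 and 144 CPM in the non-responders. Responders 9, 11 and 12 were again above every non-responder, while responder 5 was above only non-responder 6. The log2 fold change of Pfkp was 0.16 ± 0.08 (SE, adjusted p of 0.644 in edgeR).

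Aldoa was at 940.4, 1205, 1168, 1373 and 1232 CPM in the responders and at 1080.4, 1157, 1083, 1104 and 1022 CPM in the non-responders. Responders 9 to 12 were all above the non-responders and responder 5 was below all of them, for a log2 fold change of 0.12 ± 0.08 (SE, adjusted p of 0.728 in edgeR). Aldoc, an aldolase best known from brain, was at 3.53, 5.31, 3.3, 6.14 and 7.01 CPM in the responders and at 5.5, 4.82, 5.28, 5.91 and 5.2 CPM in the non-responders. It had as few as 67 counts in a tumor, its responders spanned the whole range, and its log2 fold change was -0.07 ± 0.19 (SE, adjusted p of 0.948 in edgeR). The isomerases Gpi1 and Tpi1 had log2 fold changes of 0.09 and 0.07, and the phosphofructokinase Pfkl of 0.02, each with responder 5 lowest of the 10 tumors.

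In the lower stretch, from triose phosphate to lactate, responder 5 was the lowest tumor for all 6 genes. Pgk1, which makes the first ATP of the pathway, was at 789.8, 1009, 935, 1050.1 and 1085 CPM in the responders and at 886, 961, 921, 917 and 898 CPM in the non-responders. The non-responders lay close together (SD 28.5 CPM) and the responders spread on either side of them (SD 117 CPM, n = 5 each), with a log2 fold change of 0.09 ± 0.07 (SE). Ldha was at 1006, 1323, 1212, 1280.1 and 1347 CPM in the responders and at 1124, 1250.2, 1196, 1194 and 1219 CPM in the non-responders. Its responders likewise held the lowest value, in responder 5, and the highest, in responder 12, and its log2 fold change was 0.04 ± 0.07 (SE, adjusted p of 0.901 in edgeR). Pkm was at 2501, 3019, 2860.4, 2995 and 3023 CPM in the responders and at 2712, 3074, 2883, 2705 and 2699 CPM in the non-responders. Here non-responder 2 was the highest, and the log2 fold change was 0.03 ± 0.06 (SE, adjusted p of 0.916 in edgeR). The log2 fold changes of the other enzymes were 0.09 for Gapdh, 0.07 for Eno1 and -0.002 for the mutase Pgam1.

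Summed over the 13 glycolytic enzymes, 0.891% of all estimated counts fell on them in responder 5, 1.13% in responder 11 and 1.14% in responder 12. All sums in this paragraph leave out near-identical copies, which held a mean of 1420 CPM for Eno1 and 1520 CPM for Gapdh. Responder 9 had 1.11%, responder 10 had 1.06%, and the non-responders ran from 0.979% to 1.08%. On the TMM-scaled CPM the sums were 10666 ± 1078 CPM (responders) and 10216 ± 420 CPM (non-responders), with the SD over 5 tumors, so the groups differed by less than the spread of the responders. Without responder 5 the responders were at 11115 ± 449 CPM (SD over 4 tumors), and the gap to the non-responders was then larger than the SD of either group. Responder 5 was the lowest tumor and was left out after its values were seen, which widens the gap by construction.

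Of the genes that set the flow of carbon, Pfkfb3 had the lowest p of the set. It encodes the enzyme that makes fructose-2,6-bisphosphate, the activator of phosphofructokinase. Pfkfb3 was at 45.9, 63.2, 54.4, 59.8 and 53.9 CPM in the responders and at 51.8, 44.2, 52.3, 45.9 and 38.9 CPM in the non-responders. Responders 9 to 12 were above every non-responder and responder 5 was in their middle. The log2 fold change was 0.25 ± 0.09 (SE) with an adjusted p of 0.624 in edgeR. Its relative Pfkfb4 (14.4 ± 0.856 and 14.7 ± 2.25 CPM, SD, n = 5 each) and Pdk1, the mitochondrial kinase that inhibits pyruvate dehydrogenase (97.2 ± 22.8 and 96.1 ± 14.2 CPM), had nearly equal means in responders and non-responders.

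Bnip3, a mitophagy receptor that HIF induces, was at 103, 191, 122, 154 and 184 CPM in the responders and at 111, 159.5, 157, 116 and 131 CPM in the non-responders. Responders 9 and 12 were highest and responder 5 lowest, with a log2 fold change of 0.16 ± 0.19 (SE, adjusted p of 0.856 in edgeR). The related receptor Bnip3l had a log2 fold change of 0.01 and the mitochondrial protein Higd1a of 0.04, and responder 5 was the lowest tumor for both.

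Vegfa, the endothelial growth factor, was at 306, 437, 356, 372 and 421 CPM in the responders and at 323, 376, 422, 350.1 and 353 CPM in the non-responders. The highest and the lowest tumor were both responders, 9 and 5, and the log2 fold change was 0.05 ± 0.10 (SE, adjusted p of 0.916 in edgeR). Adm, the vasodilator peptide adrenomedullin, was at 10.9, 20.2, 12.8, 18.0 and 22.7 CPM in the responders and at 10.5, 19.5, 22.1, 24.1 and 21.1 CPM in the non-responders. Non-responder 1 and responder 5 were the lowest tumors, followed by responder 10, and the log2 fold change was -0.20 ± 0.26 (SE, adjusted p of 0.873 in edgeR).

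P4ha1 and P4ha2, the collagen prolyl hydroxylases that hypoxia induces, had log2 fold changes of 0.05 and 0.07, with responder 9 highest and responder 5 lowest for each. Ddit4, an inhibitor of mTORC1 known as REDD1, had the lowest fold change of the set. It was at 54.6, 79.3, 67.9, 56.6 and 92.5 CPM in the responders and at 56.5, 96.9, 73.5, 94.5 and 92.0 CPM in the non-responders. Responder 5 was lowest, followed by non-responder 1 and responder 11 at practically the same level, and the log2 fold change was -0.24 ± 0.19 (SE, adjusted p of 0.775 in edgeR). The log2 fold changes of the other targets were 0.12 for Ndrg1, 0.11 for the MYC antagonist Mxi1, 0.04 for the histone demethylase Kdm3a and -0.02 for Ankrd37.

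Tumor by tumor, the genes differed more within the responders than between the groups. Responder 5 was the lowest of the 10 tumors for 24 of the 34 genes, beside 8.51% of all features, and was the highest for 0. Responder 9 was the highest for 13, responder 12 for 11 and responder 11 for 5, beside 13.7%, 5.25% and 14.1% of all features, so the count of responder 11 was near its share over all features. Set against the range of the 5 non-responders, responder 5 fell below it for 26 genes and above it for 0. Responders 9 and 12 each rose above it for 24 genes and responder 11 for 18, and none of these 3 fell below it for any. Responder 10 was within the range for 23 genes, below it for 7 and above it for 4, beside 16.1% below and 14.8% above over all features. Over all features, the share below the range was 13.2% in responder 5, and the share above it was 21.4% in responder 9, 20.3% in responder 11 and 13.7% in responder 12.

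**Figure D3:**
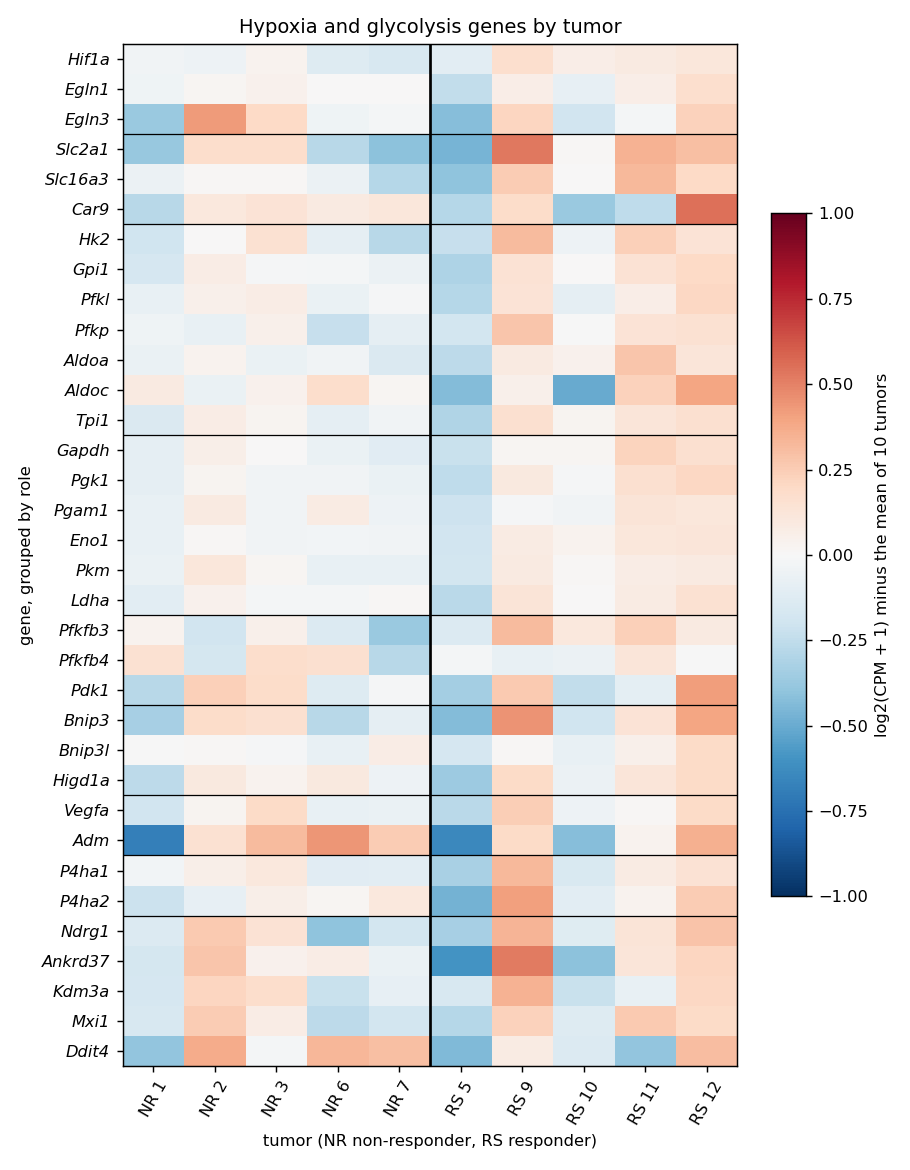
Log2(CPM + 1) of each gene (rows, grouped by role) in each tumor (columns, non-responders left of the black line and responders right of it), minus the mean of that gene over the 10 tumors. Responder 5 is blue in nearly every row and holds the lowest value of 24 genes, and responders 9, 11 and 12 together hold the highest value of 29.

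The mean score, in which each gene was centered and divided by its SD over the 10 tumors, put the tumors in one order. Responder 12 stood at 1.08, responder 9 at 0.96 and responder 11 at 0.62, above non-responders 2 at 0.35 and 3 at 0.30. Non-responder 6 at -0.28, responder 10 at -0.38, non-responder 7 at -0.43 and non-responder 1 at -0.67 followed, and responder 5 was last at -1.55. The group means were 0.14 ± 1.11 in responders and -0.14 ± 0.45 in non-responders (SD, n = 5 each). The difference of 0.29 between these means was 0.71 without responder 5, and it moved from 0.43 to 0.93 for the 13 glycolytic enzymes and from 0.20 to 0.57 for the 21 other genes. Leaving out the lowest tumor of a group raises the mean of that group by construction. The 13 glycolytic enzymes and the 21 other genes, scored apart, both put responder 5 last, at -1.80 and -1.39, and responders 9 and 12 above every non-responder.

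**Figure D4:**
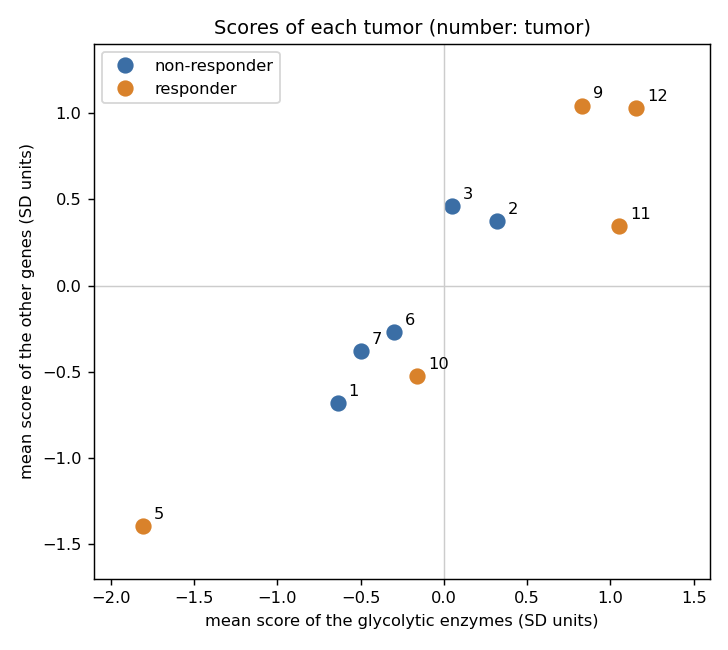
Mean score of the 13 glycolytic enzymes (horizontal) against that of the 21 other genes (vertical), in SD units over the 10 tumors, for responders (orange) and non-responders (blue), with the tumor number beside each point. Responder 5 lies alone at the lower left (-1.80 and -1.39), and responders 9 and 12 lie at the upper right.

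The larger spread of the responders ran through the set. The SD of log2(CPM + 1) was larger in responders for 29 of 34 genes (85.3%) and for 48.1% of all features. The median SD was 0.21 in responders and 0.13 in non-responders, beside 0.115 and 0.119 over all features. Without responder 5 the larger SD was in responders for 19 of 34 (55.9%) and for 42.3% of all features.

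One tumor therefore decided several counts, and they were repeated without it. Leaving out each tumor in turn was planned, but the focus on responder 5 was chosen after its values were seen. It was the lowest tumor for 24 of these same genes, so leaving it out raises their fold changes by construction. The shares over all features did not select the tumor and are not an even background for the set. The genes also moved together across tumors, so a count of them is not a count of separate results. Without responder 5, 13 of 34 genes (38.2%) had an unadjusted p under 0.05 and were higher in responders, against a background that was itself larger, at 6.31%, and 0 were lower, against 7.03%. None of the 34 was called at an adjusted p under 0.05, against 0.0444% of all features (7 in number). The median log2 fold change was 0.12, and 31 genes were above 0. Leaving out other tumors moved the median as well, down to 0.014 without responder 12 (20 genes above 0), 0.017 without responder 9 (22 genes) and 0.023 without non-responder 1 (24 genes), and up to 0.085, 0.079 and 0.078 without non-responder 3, responder 10 and non-responder 2. The 13 were Hif1a, Slc2a1, Slc16a3, Hk2, Gpi1, Pfkp, Aldoa, Tpi1, Gapdh, Pgk1, Eno1, Ldha and Pfkfb3, of which 9 are glycolytic enzymes. Their lowest adjusted p were 0.124 for Slc16a3, 0.139 for Pfkfb3 and 0.147 for Hif1a in edgeR, with log2 fold changes of 0.28 ± 0.07, 0.31 ± 0.08 and 0.18 ± 0.05 (SE). The 4 responders left were all above the 5 non-responders for Hif1a, Aldoa, Eno1 and Pfkfb3, or 11.8% of the set beside 2.11% of all features. For Eno1 this did not hold once its near-identical copies were added, since responder 10 was then at 2620 CPM and non-responder 2 at 2710 CPM. Car9 at 0.03 ± 0.19, Pfkfb4 at -0.01 ± 0.11 and Ddit4 at -0.16 ± 0.20 (log2 fold change and SE) had no p under 0.05. Leaving out responder 9 instead left 0 genes with p under 0.05, and leaving out responder 12 or non-responder 6 or 7 left 1. Over all features the count with p under 0.05 fell too, from 1215 to 802 without responder 9 and 990 without responder 12. It was 958 without non-responder 6 and 880 without non-responder 7.

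Most of the genes rose and fell together across the tumors. Pgk1, both a glycolytic enzyme and a known HIF target, was the reference, and the other 33 were correlated with it on log2(CPM + 1), with two-sided permutation tests of 100000 resamples and Benjamini-Hochberg adjustment over the 33. By Pearson's r, 26 passed an adjusted p under 0.05, by Spearman's rho 24, and all 33 values of r were above 0. The share of all features that pass these tests was not determined, so the counts of 26 and 24 have no background beside them. The median r was 0.787, beside -0.004 over all features, of which 49.7% were above 0. By r, Eno1 was closest to Pgk1 (r = 0.979, permutation p = 1e-05, the smallest these permutations can give, adjusted p = 0.000165). Its rho was 0.952 (permutation p = 0.0001, adjusted p = 0.0011). Gpi1 (r = 0.973 and rho = 0.988) and Ldha (r = 0.945 and rho = 0.915) were next by r. By rho, Gpi1 was closest, and Gapdh (rho = 0.964), Aldoa, Tpi1 and Slc2a1 also stood above Ldha. Of the targets outside glycolysis, Slc16a3 had r = 0.916 and rho = 0.891, Egln1 r = 0.896 and rho = 0.83, Bnip3 r = 0.833 and rho = 0.83, and Vegfa r = 0.761 and rho = 0.782. The r of Pfkfb4 was near 0 (r = 0.0327, rho = -0.0909), and it passed by neither measure, nor did Ddit4 (r = 0.35, rho = 0.406), Car9 (r = 0.521, rho = 0.515), Kdm3a (r = 0.548, rho = 0.612), Adm (r = 0.567, rho = 0.358), Pfkfb3 (r = 0.572, rho = 0.6) or Aldoc (r = 0.652, rho = 0.467, adjusted permutation p = 0.0502 and 0.196). Bnip3l and P4ha2 passed by r alone.

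Part of that relation rests on the extreme tumors. Without responders 5 and 12, the tumors farthest from the median of Pgk1, 11 of 33 passed by r and 9 by rho in exact permutation tests, the median r was 0.654 and 31 were above 0. Neither the share passing nor the median r over all features was determined in this setting, so the drop has no background beside it. Eno1 (r = 0.959), Gpi1 (r = 0.935) and Aldoa (r = 0.933) stayed close to Pgk1, whereas Bnip3l fell to r = 0.303, Car9 to r = -0.0367 and Ddit4 to r = -0.216. On deviations from the group means, 23 passed by r and 20 by rho, with a median r of 0.806, again without a value over all features. These deviations pool both groups and keep responders 5 and 12. The SD of log2(CPM + 1) of Pgk1 was 0.182 in responders and 0.044 in non-responders, so the responders weigh more. The relation inside each group alone was not tested. Levels scaled to the same total are not independent of each other.

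**Figure D5:**
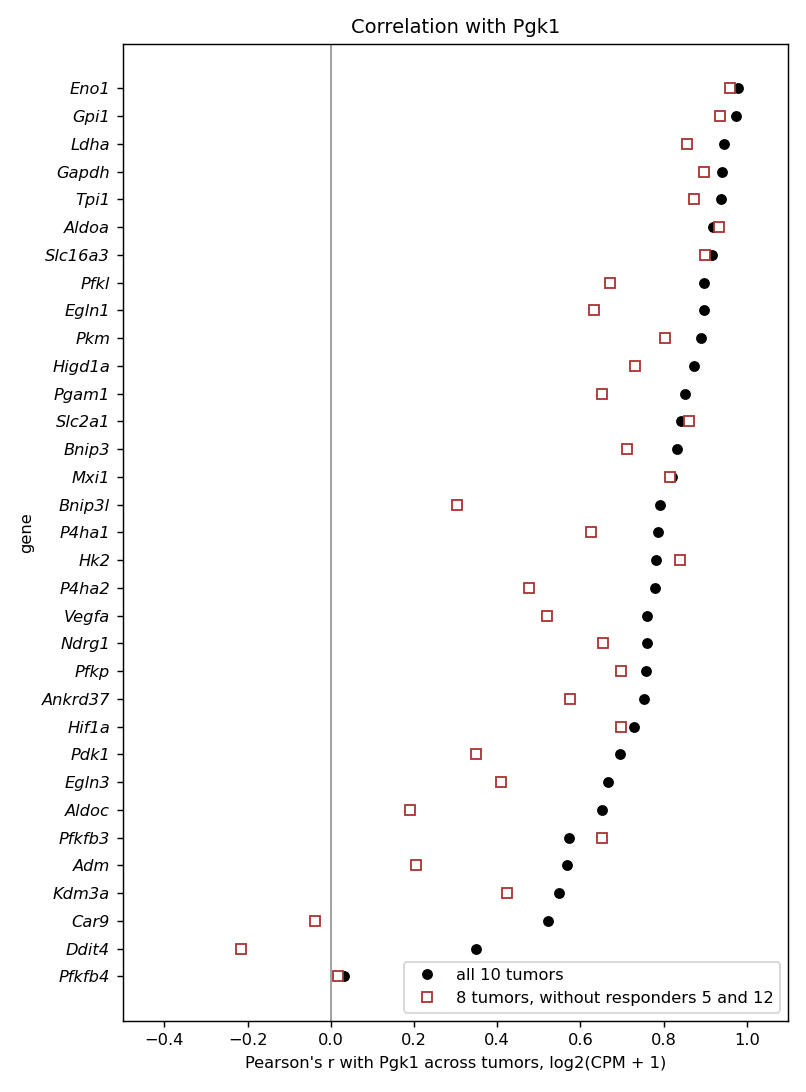
Pearson's r of each of the 33 other genes with Pgk1 across tumors on log2(CPM + 1) (horizontal axis), for all 10 tumors (black circles) and for 8 tumors without responders 5 and 12 (red squares). Eno1, Gpi1 and Aldoa stay above 0.9 in both, and Car9 and Ddit4 pass below 0 when the 2 tumors are left out.

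Reads of 2 of the enzymes can be divided with near-identical copies. The transcripts of Eno1b match Eno1 at 99.5% identity over 1736 bases, and Eno1b carried 53.4% of the sum of Eno1 and its copies. For Gapdh, 64 copies in the table carried 71.5% of the sum, chiefly Gm13394 at a mean of 1050 CPM and Gm7336 at 415 CPM, against 606 CPM on Gapdh itself. With the copies added, the log2 fold change fell from 0.07 to 0.04 for Eno1 and from 0.09 to 0.05 for Gapdh with all 10 tumors, and the test without responder 5 was not repeated on the sums. Eno1 with its copies was at 2360 CPM in responder 5, lowest of the 10, and at 2870 CPM in responder 12, and Gapdh with its copies ran from 1840 CPM in responder 5 to 2350 CPM in responder 11. Antisense or overlapping genes lie across several loci, among them Fam57b at Aldoa and Spsb2 at Tpi1, and the strand setting of the counting is not given in the sources used here.

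The wider pathway was described with 77 further genes of oxygen sensing, glucose metabolism and the hypoxia response, of which 76 were in the table and 70 passed the filter. Between the groups 40 were above 0 and 30 below, with a median log2 fold change of 0.008. An unadjusted p under 0.05 was found for 5 higher in responders (7.14%) and 4 lower (5.71%), against the backgrounds of 3.86% and 3.84%, and 0 were called in edgeR. Without responder 5 these counts were 13 higher (18.6%) and 3 lower, against 6.31% and 7.03%, and again 0 were called. That tumor was picked on genes of the same pathway, so these backgrounds are not even ones. The 3 lowest p among the higher genes belonged to Gapdhs, a sperm form of Gapdh (0.44 ± 0.15, SE), Rab20, a small GTPase (0.34 ± 0.12), and Pygl, a glycogen phosphorylase (0.38 ± 0.16), as log2 fold changes. Rab20 was the single gene of the 70 whose groups did not overlap. Over all features, the responders lay wholly above in 0.336% and wholly below in 0.59%. Rab20 was at 13.3, 14.1, 13.8, 17.2 and 13.7 CPM in the responders and at 12.3, 12.5, 13.0, 11.2 and 8.25 CPM in the non-responders. The 3 lowest p among the lower genes belonged to Loxl2, a lysyl oxidase relative (-0.16 ± 0.06, SE), Pgam2, the muscle phosphoglycerate mutase (-0.46 ± 0.17), and Ppfia4 (-0.39 ± 0.15). Every one of these 6 had an adjusted p of 0.624 or 0.63 in edgeR. Gapdhs had at most 91 counts in a tumor and Pgam2 at most 134.

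None of the 15 further genes of oxygen sensing and the HIF machinery had an unadjusted p under 0.05, and their log2 fold changes ran from -0.52 for Hif3a, at most 19 counts in a tumor, to 0.32 for Arnt2, at most 43 counts. Arnt, the usual dimer partner of HIF-1 alpha, had a log2 fold change of 0.01 ± 0.06, Epas1, which encodes HIF-2 alpha, of 0.09 ± 0.15, and Vhl of -0.03 ± 0.07 (SE). The hydroxylase genes Egln2 and Hif1an stood at -0.04 ± 0.06 and 0.08 ± 0.05. Among the metabolic genes, Slc16a1, the transporter MCT1, was at 0.04 ± 0.05, Hk1 at -0.05 ± 0.05 and Ldhb at 0.01 ± 0.14, the last at only 3.11 ± 0.345 CPM in responders. Hilpda, a lipid droplet protein induced by hypoxia, was at 14.4, 29.9, 26.9, 33.4 and 26.4 CPM in the responders and at 24.4, 26.9, 24.2, 20.5 and 20.4 CPM in the non-responders. Responder 5 was again the lowest of the 10 and responder 11 the highest, with a log2 fold change of 0.17 ± 0.19, while Plod2, a collagen lysyl hydroxylase, was at -0.11 ± 0.10.

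Markers of the cells in the pieces were read beside these values. For every list below, the background is that 48.6% of all features had a log2 fold change above 0. An unadjusted p under 0.05 was found for 3.86% of all features higher in responders and 3.84% lower, in edgeR. All 10 fibroblast and fibrosarcoma markers passed the filter, with Vim, the most abundant, at 4240 to 5620 CPM, although host stroma shares these genes and they cannot identify the line. Of these 10, 3 had higher means in responders and 2 were lower with an unadjusted p under 0.05, and their summed level was 12200 CPM in responder 5 and 11400 to 12400 CPM in the other responders, against 11500 to 13300 CPM in the non-responders. All 10 T and NK cell markers had higher means in responders, 4 of them with an unadjusted p under 0.05, and their sum was 30.9 CPM in responder 5, 94.2, 97.0, 134 and 86.8 CPM in responders 9 to 12, and 31.6 to 74.2 CPM in the non-responders. Prf1, the most abundant of them, ran from 8.92 to 66.8 CPM. Of 10 endothelial markers, 1 had a higher mean in responders and 4 were lower with an unadjusted p under 0.05, and their sum was 219 CPM in responder 5, 184 to 211 CPM in the other responders and 208 to 248 CPM in non-responders, with Pecam1 the most abundant at 61.7 to 77.0 CPM.

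Markers of proliferating cells, all 10 past the filter and led by Top2a (665 to 801 CPM), had higher means in responders for 7 of 10 and summed to 2460 CPM in responder 5, the lowest of the 10, and to 2780 CPM in responder 9, the highest. Macrophage markers, led by Lyz2 (761 to 1190 CPM), had higher means in responders for 9 of 10 and summed to 2300 CPM in responder 5, 2330 to 2860 CPM in the other responders and 2110 to 2820 CPM in the non-responders. Neutrophil markers, 7 of 10 past the filter, all 7 with higher means in responders, and led by Mmp9, summed to 58.3 CPM in responder 5, 69.8 to 144 CPM in the other responders and 51.0 to 124 CPM in the non-responders. For skeletal muscle markers 0 of 10 had a higher mean in responders, with a median log2 fold change of -0.48 and no unadjusted p under 0.05. They summed to 156 CPM in responder 5, 82.8 to 236 CPM in the other responders and 115 to 239 CPM in non-responders, with Acta1 at 33.6 to 101 CPM. Adipocyte markers summed to 66.8 to 119 CPM over the 10 tumors, erythroid markers to 15.3 to 29.9 CPM and keratinocyte markers to 18.4 to 22.7 CPM, with 9 of 10, 5 of 8 and 3 of 10 past the filter and Krt1 at 0 in every tumor. Of those past the filter, 1 adipocyte, 3 erythroid and 2 keratinocyte markers had higher means in responders, as did 2 of 10 handling genes. With an unadjusted p under 0.05, 1 adipocyte marker was lower, and 1 erythroid and 1 keratinocyte marker were higher. The macrophage, neutrophil, proliferating cell and handling lists had 0 in either direction. Genes induced during tissue handling, led by Junb, summed to 1370 CPM in non-responder 2 and 663 to 1060 CPM in the others. The part of these cells, of proliferation and of handling in the levels of the hypoxia and glycolysis genes was not tested.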

How the data were processed

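The authors estimated transcript abundances with kallisto on GRCm38 and deposited them as estimated counts per gene, without scaling for depth or gene length. The annotation release is not given in the sources used here. Of 36009 rows, 9580 had no gene name (1.31% of counts) and were kept as features, and rows of 1 name were summed, which gave 35958 features. Expected counts were rounded. Totals ran from 16002949 to 31160790 per tumor, and the biological coefficient of variation was 10.4%. Estimated counts carry an assignment error that was not measured.

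The 15767 features past the filter (CPM above 0.366 in 3 tumors or more) were tested with edgeR 4.0.16 (TMM, robust quasi-likelihood test, two-sided, no covariates) in R 4.3.3. DESeq2 1.42.0 and limma 3.58.1 (voom), other factors and filters, leaving out each tumor, other pseudocounts than 1, and copies added to their gene were alternatives. Coordinates and lengths come from GENCODE M21, and copies are transcripts of other genes with at least 95% identity over at least 200 bases by blastn. Scripts were tested on simulated counts. The genes and lists were chosen with earlier results of these data known. All 34 genes are named. Full statistics are given for the 4 lowest p in each direction and the 3 most abundant per length without copies. They are also given for Hif1a, Vegfa, Car9, Slc2a1, Slc16a3 and Bnip3. Of the pathway list, the 3 lowest p in each direction, 10 preset genes, and the lowest and highest fold change of the oxygen-sensing genes (Hif3a and Arnt2) are named. Tumor numbers are unique across groups, so no pairing exists. The other tumor model and time course of the study were not analysed here.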

Additional observations from a re-analysis of the deposited data

Results flagged for a closer look

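Within each group of 5 tumors, the gap of the lowest and of the highest tumor to its neighbor was compared with the range of the group (Dixon's ratio, 95% limit 0.71) for the 34 genes and their mean level. Of 70 such groups 4 had a tumor beyond the limit, and chance alone gives about 1 in 20 groups, or 3.5. On log2(CPM + 1), Slc16a3 was at 6.40 in non-responder 7 and 6.62 to 6.70 in the other non-responders. Car9 was at 5.66 in non-responder 1 and 6.02 to 6.07 in the other non-responders. Adm was at 3.53 in the same tumor, non-responder 1, and 4.36 to 4.65 in the others. Eno1 was at 10.08 in responder 5 and 10.31 to 10.39 in the other responders, and it was the single flag in that tumor.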

How the results depend on the processing

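No paired analysis was possible because tumor numbers are unique across the groups. Of 646 log2 fold changes of the 34 genes under the alternatives, 599 kept their direction, 47 changed sign, and none passed the adjusted threshold. For 20 genes no alternative changed the sign, for 10 only leaving out a tumor did, and for 4 other settings did too, always at values near 0. Egln1 was at 0.0003 with RLE factors and with DESeq2 and at 0.0001 with CPM above 1 in at least 5 tumors. Pgam1 was at 0.002 with RLE factors and DESeq2, 0.0008 without a filter and 0.0018 with the stricter filter. With limma voom, Pfkfb4 was at 0.0153 and Pdk1 at -0.0056. Leaving out 1 tumor at a time, log2 fold changes ran from -0.2192 to 0.0492 for Aldoc, -0.1719 to 0.1135 for Ankrd37, -0.0418 to 0.0492 for Bnip3l, -0.2152 to 0.0472 for Car9, -0.05 to 0.0531 for Egln1, -0.1714 to 0.0331 for Egln3, -0.0171 to 0.1271 for Higd1a, -0.0421 to 0.1054 for Kdm3a, -0.0316 to 0.1238 for P4ha1, -0.0265 to 0.1784 for P4ha2, -0.1049 to 0.0946 for Pdk1, -0.0905 to 0.0266 for Pfkfb4, -0.031 to 0.0873 for Pfkl and -0.0328 to 0.0463 for Pgam1. Genes that kept their sign moved in size as well. Among them, the range was 0.0708 to 0.2726 for Bnip3, 0.0012 to 0.1199 for Vegfa and 0.0101 to 0.1088 for Ldha. It was 0.0513 to 0.2167 for Ndrg1 and -0.3594 to -0.0768 for Adm. Genes with p under 0.05 and higher in responders ran from 0 to 13, features with p under 0.05 from 785 to 2103, and features called at an adjusted p under 0.05 from 0 to 7, each highest without responder 5. DESeq2 called 1 feature, which was not in the set. The count correlated with Pgk1 was 26, and 11 without the 2 tumors farthest from its median, and the share of all features passing was determined for neither. The causes were not tested. With 5 tumors a group, the standard error on the log2 scale was 0.06 to 0.26, and differences of about that size were not detectable. Differences well above their standard error were not called either, such as Pfkfb3 at 0.25 ± 0.09 (SE, adjusted p of 0.624 in edgeR). Larger differences than the standard errors are therefore not excluded.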
